A study of Arabidopsis thaliana with 8 samples.

Results

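The transcripts described here are those whose signal was far lower on 1 array, rdr6-15 replicate 1, than on all 7 other arrays of the series. A probe set is a group of oligonucleotides on the array that reads 1 transcript or a few related ones. The members were chosen by the log2 signal on rdr6-15 replicate 1: a probe set was taken where that signal lay more than 3 units, or more than 8-fold, below the lowest of the other 7 arrays. Of 22746 probe sets, 112 were members (0.492%). Since the drop chose them, it is given as a description, with no test, and is not a measurement of what the loss of RDR6 does.

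The series measured total RNA of Arabidopsis thaliana inflorescences, flower stages 9 to 12, on ATH1 arrays. Plants were grown under long days and came in 4 genotypes with 2 biological replicates each. Beside the wild type Col-0 there were the mutants ddm1-2 and rdr6-15 and plants with both alleles, ddm1-2 rdr6-15, here the double mutant. DDM1 remodels chromatin and holds transposons silent, while RDR6 copies RNA into double strands for the small RNA pathways. Each array received 6 ug of RNA from pooled tissue (n = 3), so plant-to-plant spread is not seen within an array.

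At these stages an inflorescence holds buds in which petals elongate, anthers form pollen and the carpels close, beside the stem and the meristem. Many genes are active almost only in such organs, among them genes for surface lipids, cell wall enzymes, volatile compounds and small defence peptides. In whole tissue, fewer cells of a type and less RNA per cell cannot be told apart. THI2.1, a thionin known for its high level in flowers and seedlings and for its induction by jasmonate, is the best-known gene among the members. Thionins are short cysteine-rich peptides that harm microbes.

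Gene names were limited. Exactly 1 gene was listed for 41 of the 112 members (36.6%, against 59.4% of all probe sets), 3 listed several, and 68 listed none. All 41 were annotated as protein coding, 0 as pseudogenes and 0 as organelle-encoded, and they were 41 different loci. For all but 11 of the 41 the symbol was the locus tag alone, and these are given by that tag. Probe sets of the types _s_at and _x_at, which related sequences share, were 6 of the 112 (5.4%, against 4.7% of all).

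By the rule, members had to read more than 3 log2 units above rdr6-15 replicate 1 on each of the 7 other arrays, so a high level there is largely set by the choice. Their medians over those arrays ran from 5.98 to 11.56, with a median of 8.08, a level above that of 95.9% of all probe sets, whose own median was 3.75. On rdr6-15 replicate 1 they ran from 2.25 to 8.01 with a median of 3.55. Probe sets for Bacillus RNA, 27 in all, show what the array reads without a plant target. Their highest mean over the arrays, 3.56, is called control level. On rdr6-15 replicate 1, 56 of the 112 members lay at or below it, so for these the drop is a lower limit. The other 56 kept some signal, while on each of the 7 other arrays all 112 lay above control level.

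The per-array medians of the members were 8.22 and 8.20 in Col-0, 8.05 and 8.04 in ddm1-2, and 8.02 and 8.02 in the double mutant. On rdr6-15 replicate 2 the median was 8.13, beside 3.55 on replicate 1. The rule fixes that replicate 2 lies well above replicate 1, but not where it lies among the other genotypes. For 93 of the 112 members (83%) it lay within the range of the 6 arrays of the other genotypes. It lay below that range for 10, by at most 0.69, and above it for 9, by at most 1.33. Over all probe sets the share within that range was 77%.

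**Figure D1:**
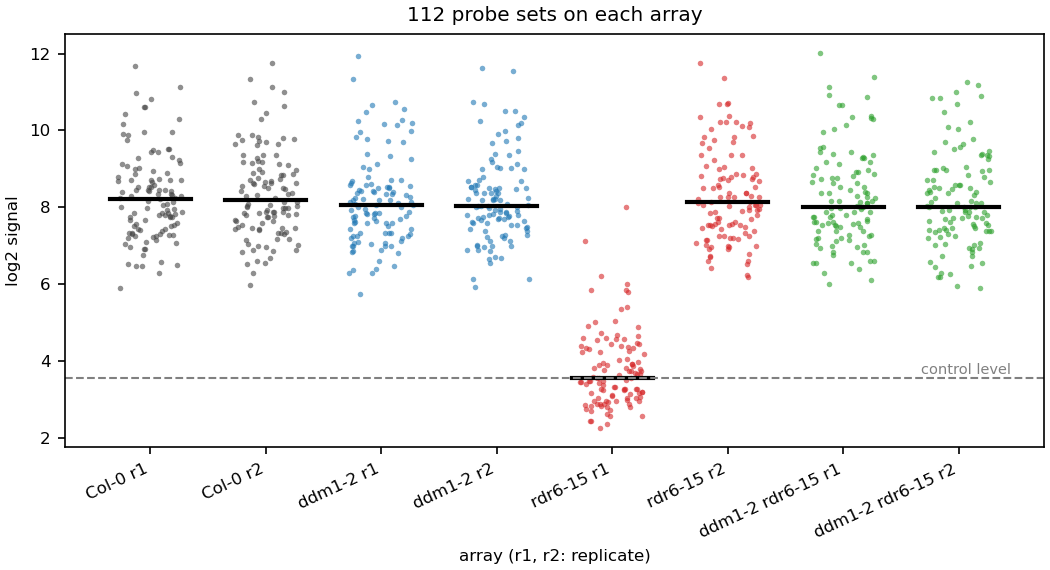
Log2 signal (y axis) of the 112 members on each of the 8 arrays (x axis, r1 and r2 are replicates); each point is a probe set, the black bar is the median and the dashed line is control level (3.56). The medians lie between 8.02 and 8.22 on 7 arrays and at 3.55 on rdr6-15 replicate 1.

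The gap between rdr6-15 replicate 1 and the lowest of the other arrays ran from 3.01 to 7.13, with quartiles of 3.29 and 4.33 and a median of 3.74. It lay between 3 and 4 for 69 members, between 4 and 5 for 30, between 5 and 6 for 9, and above 6 for 4. The 3 members nearest to the threshold had gaps of 3.01, 3.02 and 3.03. Just outside it, AT1G62480 had 6.87 beside a lowest value of 9.87 elsewhere and AT5G66590 had 4.58 beside 7.57, so the threshold falls within a continuous run of gaps. A gap of more than 1 was seen for 919 probe sets and of more than 2 for 270. With any other array in its place, the count of more than 3 was 0, and the count of more than 1 was at most 7.

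**Figure D2:**
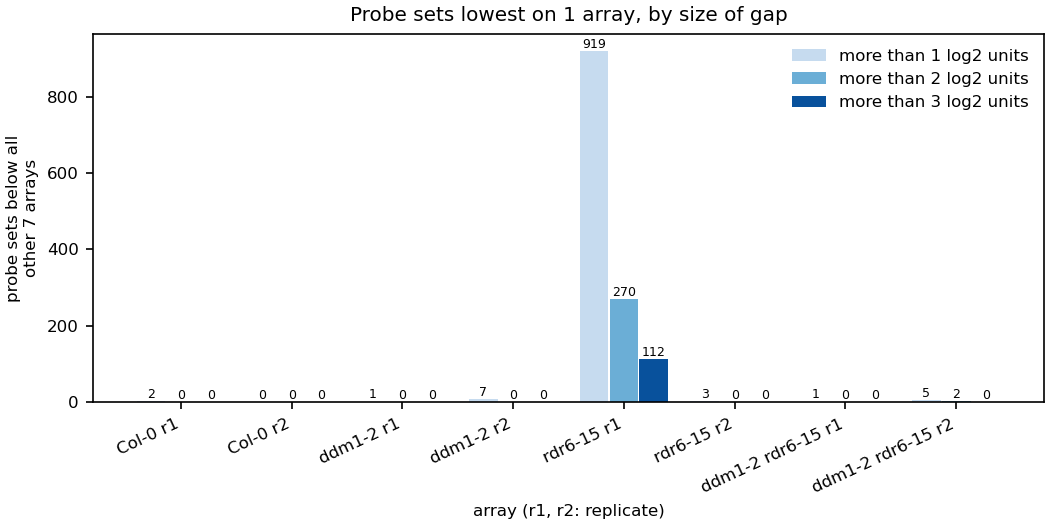
Number of probe sets (y axis) that lie below all 7 other arrays by more than 1, 2 or 3 log2 units (bar shades), for each array (x axis, r1 and r2 are replicates). On rdr6-15 replicate 1 the counts are 919, 270 and 112, and on every other array at most 7, 2 and 0.

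rdr6-15 replicate 1 stood apart across the whole array as well. It correlated with the 7 others at 0.852 to 0.879 over all probe sets, where the others reached at least 0.944 among themselves, and 66 probe sets lay more than 3 above every other array. Over the 112 members alone its correlation with the others was 0.537 to 0.601, against at least 0.763 among the other 7, a description over probe sets that share arrays and were chosen for that array. Signs of RNA quality differed in part. The log2 difference between 3′ and 5′ probe sets was 2.98 for actin on this array and 1.75 to 2.17 on the others, 1.05 for ubiquitin against 0.06 to 0.53, and -0.51 for GAPDH, within the range of -1.08 to -0.30 of the others. A further pair of probe sets for each transcript gave 4.09 for actin, below the 4.30 to 4.85 of the others, 2.46 for ubiquitin against 1.92 to 2.26, and 0.77 for GAPDH against -0.44 to 0.39. The pairs thus differed in direction for actin, and for GAPDH in whether this array stood outside the others. The part of RNA quality in the members' drop was not tested.

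Some markers of tissues also differed on this array. Of 34 nuclear photosynthesis loci listed, 4 were matched, and all 4 were highest of 8 arrays on rdr6-15 replicate 1. The list had a median of 10.84 there, against 9.65 to 9.98 on the other arrays. PRK, the kinase that regenerates the acceptor of carbon dioxide in the Calvin cycle, reached 10.87, where no other array passed 10.02. SBPASE, a phosphatase of the same cycle, reached 10.81, where none passed 9.79. PSBW had 10.7 beside at most 10.08, and RCA stood closest to the others, with 12.38 beside at most 12.12. Summed on the linear scale the 4 gave 10677 there and 5810 to 7289 elsewhere. Plastid-encoded genes, a group added with earlier results known, were highest on it for 60 of 69 probe sets, with a summed linear signal of 30719 against 12376 to 17827, while over all probe sets 30.0% were highest on it. BCAT4, an enzyme of methionine-derived glucosinolate synthesis and the 1 matched gene of that list, reached 8.15, where no other array passed 3.24. The part of a different mix of tissue in the members' drop was not tested.

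Markers of dividing cells and of flower organs gave less. Over all probe sets, 24.9% were lowest of 8 arrays on rdr6-15 replicate 1. AUR1 and AUR2, kinases of mitosis, were the 2 matched genes of the cell division list. AUR1 had 4.43 on rdr6-15 replicate 1 and at least 5.10 elsewhere, and AUR2 had 2.96 and at least 3.82. Of the floral organ identity list 2 of 16 loci had a probe set, and neither was a member. JAG, which promotes the growth of floral organs, had 3.41 on this array and 3.13 to 4.11 elsewhere, and UFO, a floral regulator, had 3.68 and 2.77 to 3.45. Both stayed near control level on all arrays, where a loss could hardly show. The 3 matched tapetum genes, the 2 matched meristem genes and the 3 matched ovule and carpel genes read at most 4.24 on any array, so they could hardly show a loss. The 4 matched late pollen genes summed to 29 on the linear scale on rdr6-15 replicate 1 and 28 to 177 elsewhere. Of these, AT59, a pectate lyase of pollen, alone was lowest there, with 2.94 on rdr6-15 replicate 1 and 3.05 to 6.93 elsewhere. The others lay within the range of the 7 arrays: ANX2 with 2.64 against 2.42 to 4.83, ANX1 with 2.92 against 2.71 to 3.98, and MGH3 with 2.84 against 2.77 to 3.41. Of the 3 matched genes of the petal and cutin list, SHN3, a regulator of cuticle lipids, had 4.25 against at least 5.33. The petal regulators RBE, with 2.61 against 2.25 to 2.98, and PTL, with 2.67 against 2.30 to 2.88, were below control level throughout. The reference gene PEX4, also listed as UBC21, had 6.52 against 6.53 to 6.89. It was the 1 matched gene of 9 reference loci kept, and actin control probe sets, given further below, fell by more. The word floral for the members therefore rests on background knowledge of genes such as THI2.1 more than on marker lists that these files could match.

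**Figure D3:**
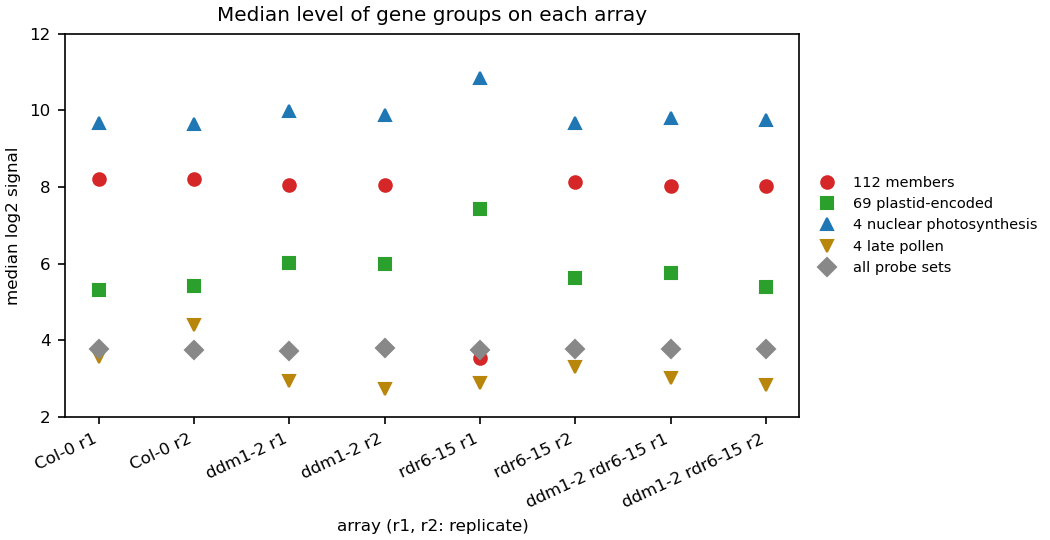
Median log2 signal (y axis) of the 112 members and of 4 comparison groups on each array (x axis, r1 and r2 are replicates); each point is a median over probe sets. On rdr6-15 replicate 1 the members fall to 3.55, while plastid-encoded genes stand at 7.43 and the 4 nuclear photosynthesis genes at 10.84, their highest medians, and all probe sets stay at 3.74.

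Among the members with a gene, the largest gap was that of AT2G20870. It read 10.81 and 11.34 in Col-0, 11.93 and 11.56 in ddm1-2, 12.03 and 11.19 in the double mutant, 11.75 on rdr6-15 replicate 2 and 3.68 on replicate 1. This was a transcript near the top of the array range on 7 arrays and close to control level on 1.

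Defence and scent genes are given next, whatever the size of their gap. THI2.1 read 9.07 and 9.12 in Col-0, 9.40 and 9.14 in ddm1-2, 10.03 and 10.48 in the double mutant, 9.37 on rdr6-15 replicate 2 and 2.70, below control level, on replicate 1. Its relative THI2.2 was no member: it read 4.17 to 5.37 on the 7 arrays and 3.34 on rdr6-15 replicate 1. Of the 4 matched genes of the jasmonate and defence list these 2 were lowest on that array, and the other 2 were highest on it at levels below control level. Over all probe sets, 24.9% were lowest on it and 30.0% highest. The defensin gene PDF1.2 had 3.01 beside at most 2.72 elsewhere, and LCR67, listed as PDF1.1, had 2.69 beside at most 2.62. CYP71B31, a cytochrome P450, read 8.71 and 8.66 in Col-0, 8.40 and 8.08 in ddm1-2, 7.04 and 8.37 in the double mutant, 8.50 on rdr6-15 replicate 2 and 2.75 on replicate 1. Of the terpene and scent list, BSMT1, a methyltransferase that makes volatile methyl esters, had 3.29 on rdr6-15 replicate 1 and 3.61 to 4.73 elsewhere, and DFR, an enzyme of anthocyanin synthesis, had 3.78 and at most 2.92. The members of that list did not move as 1 group.

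Regulators of transcription and hormones were few. ALC (ALCATRAZ), a helix-loop-helix protein needed for fruit opening, was the weakest of the named members, with 5.90 and 5.98 in Col-0, 5.75 and 5.93 in ddm1-2, 6.30 and 6.58 in the double mutant, 6.18 on rdr6-15 replicate 2 and 2.36 on replicate 1. bZIP44, a leucine zipper protein, read 6.96 to 7.51 on the 7 arrays and 3.63 on rdr6-15 replicate 1. WES1 (GH3.5), an enzyme that joins amino acids to auxin and other hormones, read 6.83 to 7.81 and 3.74. In all of these the 7 arrays lay within 1 log2 unit of each other, far less than the drop.

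Among enzymes, GPDHC1, a glycerol phosphate dehydrogenase of the cytosol, was among the most even: 7.58 and 7.88 in Col-0, 7.65 and 7.76 in ddm1-2, 7.64 and 7.65 in the double mutant, 7.73 on rdr6-15 replicate 2 and 3.44 on replicate 1. GH9B13, a glycosyl hydrolase, read 7.93 and 7.97, 7.71 and 8.24, 8.12 and 8.11 in the same order of genotypes, with 8.82 on rdr6-15 replicate 2 and 3.78 on replicate 1. AT4G33150, the lysine-ketoglutarate reductase and saccharopine dehydrogenase that degrades lysine, read 9.45 and 9.71, 8.57 and 8.21, 8.85 and 8.71, with 8.72 and 3.98. AT4G33150 was highest in Col-0, the GPDHC1 values overlapped between genotypes, and GH9B13 was highest on rdr6-15 replicate 2. GILT, a thiol reductase named after a lysosomal enzyme, read 7.31 and 6.90, 7.32 and 7.84, 7.81 and 8.95, with 7.54 and 3.28. LPR1, a multicopper oxidase known from the root response to low phosphate, read 6.55 to 7.30 on the 7 arrays and 3.40 on rdr6-15 replicate 1.

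Both named transporters were at or under control level on rdr6-15 replicate 1. SWEET4, a sugar transporter, read 7.19 and 7.43 in Col-0, 7.05 and 7.02 in ddm1-2, 7.21 and 6.92 in the double mutant, 7.18 on rdr6-15 replicate 2 and 3.03 on replicate 1. OCT1, a carnitine transporter, read 6.52 to 7.45 on the 7 arrays and 2.95.

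The loci without a symbol included most of the larger gaps. AT5G33370 read 9.22 and 9.75 in Col-0, 10.25 and 10.13 in ddm1-2, 10.14 and 9.33 in the double mutant, 10.08 on rdr6-15 replicate 2 and 2.95 on replicate 1. In the same order, AT1G66850 read 9.31 and 9.37, 8.42 and 8.58, 9.13 and 9.51, with 10.38 and 2.87. AT5G22430 read 8.23 and 9.10, 9.99 and 9.91, 10.32 and 9.44, with 9.55 and 3.06. These 3 were at control level on rdr6-15 replicate 1 only. AT3G28500 read 8.52 and 8.43, 8.56 and 9.01, 8.81 and 8.96, with 8.87 and 3.55. AT5G44630 read 7.98 and 8.01, 7.43 and 7.64, 8.17 and 8.11, with 8.15 and 2.56. AT2G28790 read 8.43 and 8.47, 8.78 and 9.04, 9.45 and 9.37, with 9.03 and 3.93. Among the 7 arrays AT5G44630 was lowest in ddm1-2, and AT2G28790 was lowest in Col-0.

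Further down, AT1G14890 read 8.72 and 8.04 in Col-0, 8.44 and 8.57 in ddm1-2, 8.17 and 8.58 in the double mutant, 8.27 on rdr6-15 replicate 2 and 3.76 on replicate 1. AT4G23680 read 8.44 and 8.97, 8.99 and 9.03, 9.28 and 9.06, with 8.57 and 4.38. AT3G12000 read 7.25 and 7.54, 7.63 and 7.78, 7.75 and 8, with 7.32 and 3.24. Of these 3, AT3G12000 alone was at control level on rdr6-15 replicate 1. AT5G62360 read 8.52 and 8.09, 7.09 and 7.55, 8.36 and 7.56, with 7.63 and 3.15. AT1G20070 read 6.97 and 7.42, 7.24 and 6.71, 6.55 and 6.19, with 6.99 and 2.43, the second lowest value among the named members there. AT5G57655 read 7.28 and 7.15, 6.60 and 6.65, 7.48 and 7.41, with 6.99 and 2.86, and AT2G33850 read 8.16 and 8.31, 8.53 and 8.36, 8.54 and 9.03, with 8.04 and 4.35. The remaining named members had gaps of 3.68 or less. Some of them kept clear signal on rdr6-15 replicate 1, such as AT5G45950 with 5.99 beside 9.28 to 9.97, AT1G30820 with 5.04 beside 8.64 to 9.74, and AT1G22160 with 4.60 beside 7.86 to 8.06.

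**Figure D4:**
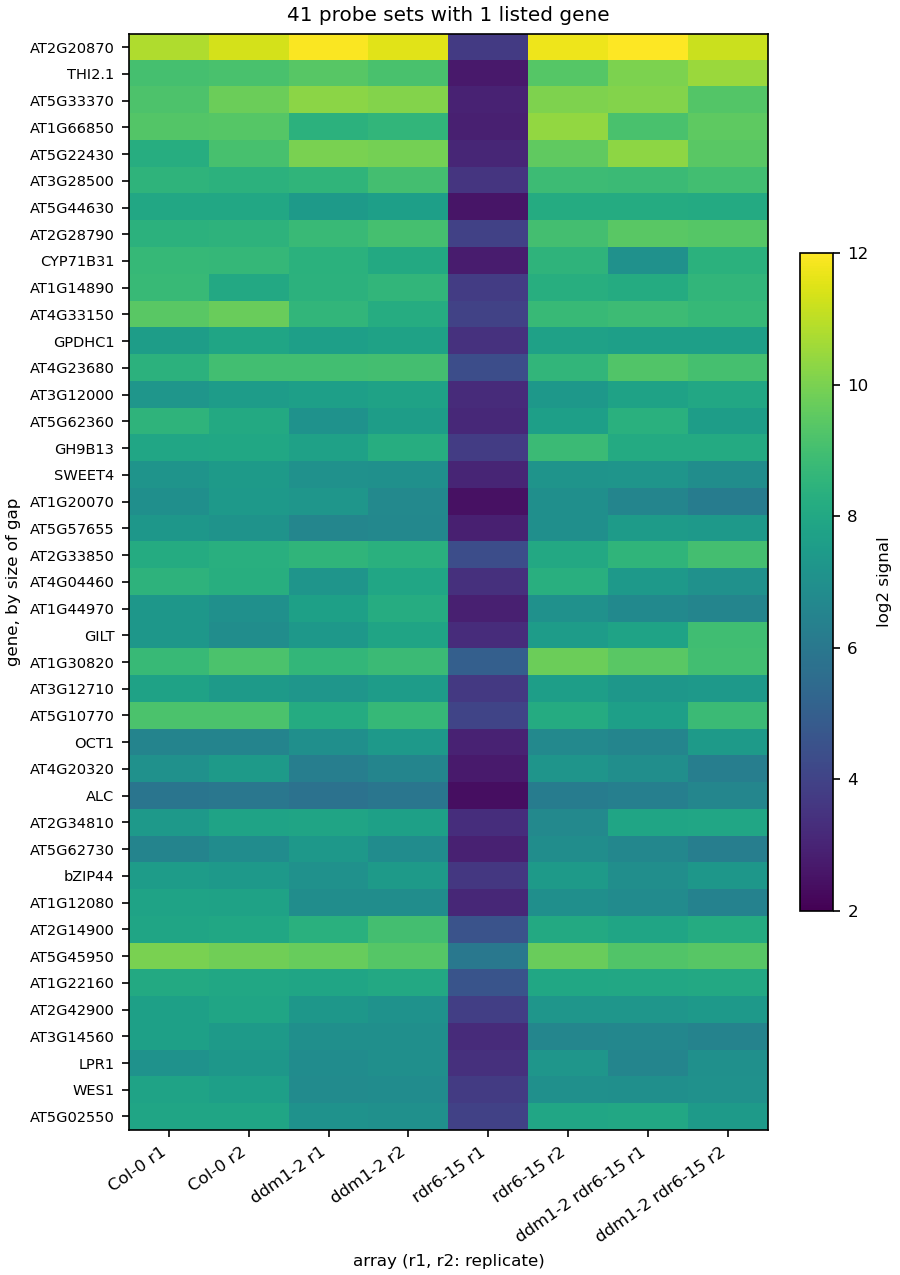
Log2 signal (colour) of the 41 members with 1 listed gene (rows, from the largest to the smallest gap) on each array (columns, r1 and r2 are replicates). The column of rdr6-15 replicate 1 is dark for every gene, from 2.36 for ALC to 5.99 for AT5G45950, while the 7 other columns range from 5.75 to 12.03.

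Across the 7 other arrays the members varied more than probe sets at large. The range from lowest to highest was 0.92 at the median, against 0.57 for all probe sets, most of which lie near control level. It was under 1 for 66 members and at least 2 for 7. AT1G22160 was the most even with 0.21, and GPDHC1 had 0.30. The widest, 4.45, belonged to a shared probe set that lists several genes: it read 10.44 and 10.63 in Col-0, 9.06 and 7.93 in ddm1-2, 8.73 and 6.19 in the double mutant, 10.05 on rdr6-15 replicate 2 and 2.97 on replicate 1. Among the named members GILT had a range of 2.05 and AT5G22430 one of 2.09.

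Comparisons between genotypes were made without rdr6-15 replicate 1, on the other 7 arrays, which the rule used through their lowest value alone. The limma model gave each genotype its own mean and covered all 22746 probe sets. Calls needed an adjusted p (Benjamini-Hochberg, over all of them) under 0.05. Setting ddm1-2 beside Col-0 addresses what the loss of DDM1 does to these transcripts. Of the 112 members, 13 were called lower in ddm1-2 (11.6%, against 2.62% of all probe sets) and 4 higher (3.57%, against 2.15%). The background holds 8191 probe sets that were at control level on all 8 arrays. In either direction 17 members (15.2%) and 4.77% of all probe sets were called. With dim probe sets left out, these were 16 members and 7.15% of 12278. The median difference over the members was -0.11 (quartiles -0.57 and 0.31), beside -0.01 over all, and 61 of 112 lay below 0. The members that passed differed by -1.79 to -0.71 where lower and by 0.74 to 1.11 where higher.

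AT4G33150 fell by 1.19 in ddm1-2 (SE 0.18, adjusted p = 0.00867 by limma), and both ddm1-2 arrays lay below both Col-0 arrays. AT1G12080, with 7.82 and 7.77 in Col-0 and 6.90 and 6.90 in ddm1-2, fell by 0.89 (SE 0.18, adjusted p = 0.0255 by limma). WES1 fell from 7.81 and 7.65 to 6.83 and 6.85, by 0.89 (SE 0.15, adjusted p = 0.0143 by limma). AT1G66850 fell by 0.84 (SE 0.18, adjusted p = 0.0329 by limma). These 4 were the members with 1 gene that were called, all of them lower. The other 13 listed no gene. AT2G20870 was 0.67 higher (adjusted p = 0.261 by limma), AT5G33370 0.70 (adjusted p = 0.21 by limma) and THI2.1 0.18 (adjusted p = 0.678 by limma), and none of them passed.

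The double mutant against Col-0 shows the loss of both genes, and it shares the Col-0 arrays with the comparison just given. Of the members, 12 were called lower (10.7%, against 2.86% of all probe sets) and 6 higher (5.36%, against 1.03%), or 18 (16.1%, against 3.89%) in either direction. With dim probe sets left out, these were 17 members and 6.43% of all. The median difference was -0.06 (quartiles -0.57 and 0.33), beside 0.02 over all. THI2.1 rose by 1.16 (SE 0.19, adjusted p = 0.0128 by limma), both double mutant arrays lying above all other arrays. AT2G28790 rose by 0.96 (SE 0.16, adjusted p = 0.0129 by limma). The called members without a listed gene that were higher rose by 0.70 to 1.33, the most being one with 9.52 and 9.62 in Col-0 and 10.92 and 10.90 in the double mutant.

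Lower in the double mutant were AT1G12080, with 6.84 and 6.44 and a difference of -1.15 (SE 0.18, adjusted p = 0.00874 by limma), and AT4G04460, with 8.46 and 8.25 in Col-0, 7.39 and 7.05 in the double mutant and a difference of -1.14 (SE 0.24, adjusted p = 0.0382 by limma). AT3G14560, with 7.68 and 7.45 in Col-0 and 6.61 and 6.47 in the double mutant, fell by 1.03 (SE 0.16, adjusted p = 0.00946 by limma), and WES1 fell by 0.71 (SE 0.15, adjusted p = 0.0407 by limma). AT4G33150 differed by -0.80 without passing (adjusted p = 0.0513 by limma), and AT1G66850, called in ddm1-2, differed by -0.02 (adjusted p = 0.98 by limma). The widest difference, -3.07, was that of the shared probe set with several genes (SE 0.69, adjusted p = 0.0458 by limma). It was called in 3 of 7 fits that left out 1 array, with -4.35 without replicate 1 of the double mutant and -1.80 without its replicate 2. The call was lost without either Col-0 array, without either ddm1-2 array, and with a trended and robust variance (adjusted p = 0.353 by limma), quantile normalization (adjusted p = 0.0584 by limma) or only these genotypes fitted (adjusted p = 0.0672 by limma). Of the 4 matched late pollen genes, 2 were called lower in each of these comparisons, and AT59 had 6.58 and 6.93 in Col-0, 4.36 and 3.49 in ddm1-2 and 4.31 and 3.05 in the double mutant. Its part in the members' differences was not tested.

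**Figure D5:**
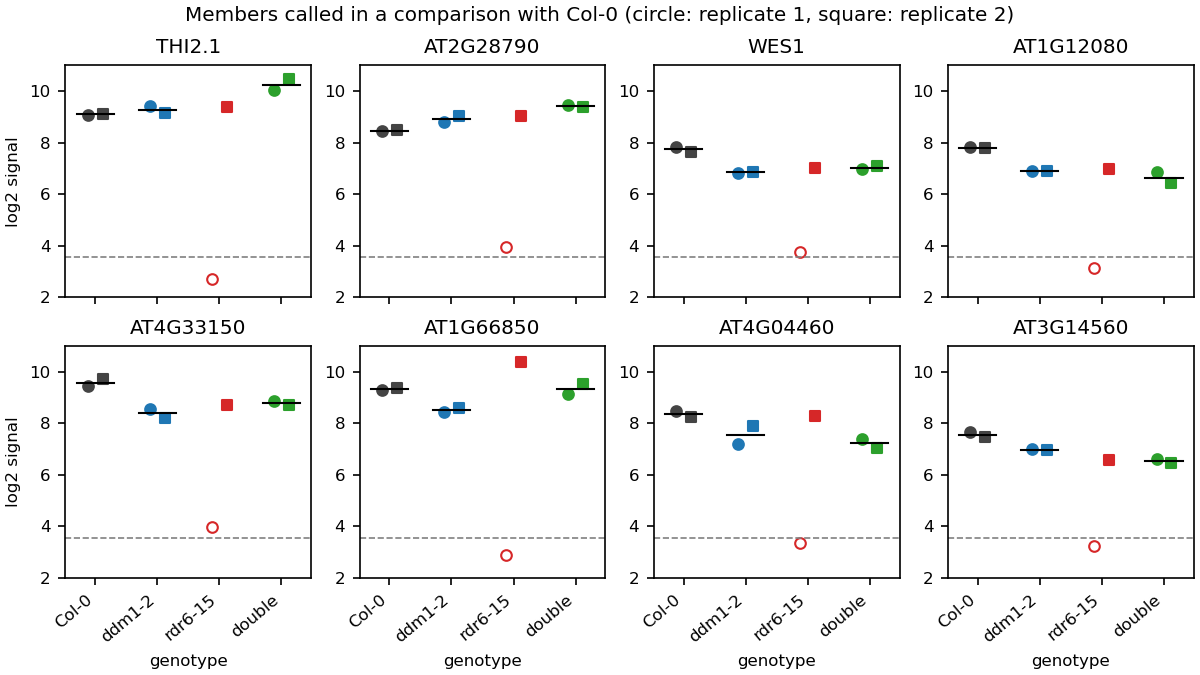
Log2 signal (y axis) by genotype (x axis) of the 8 members with 1 gene that were called in a comparison with Col-0; circles are replicate 1, squares replicate 2, the open circle is rdr6-15 replicate 1, black bars are means of 2 arrays and the dashed line is control level (3.56). THI2.1 and AT2G28790 are higher in the double mutant than in Col-0, and the other 6 are lower in ddm1-2, in the double mutant or in both.

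These counts fell whichever of the compared arrays was left out, which leaves 1 array in that genotype. Over all fits tried, no called member changed sign in either comparison. AT4G33150 in ddm1-2 ran from -1.37 to -1.01, and the shared probe set with several genes ran from -4.35 to -1.80 in the double mutant. In ddm1-2 against Col-0, the 17 called members became 2 without Col-0 replicate 1, 2 without Col-0 replicate 2, 8 without ddm1-2 replicate 1 and 3 without ddm1-2 replicate 2. The share of all probe sets called fell too, from 4.77% to 1.61%, 1.19%, 3.07% and 1.11% in the same order. In the double mutant against Col-0, the count of 18 and the 3.89% of all probe sets also fell without each of the compared arrays. Both fell least without replicate 1 of the double. Of 7 fits that each left out 1 array, AT4G33150 was called in 5 in ddm1-2, and WES1, AT1G12080 and AT1G66850 in 3. In the double mutant AT1G12080 was called in 5, THI2.1, AT2G28790, AT4G04460 and AT3G14560 in 4, and WES1 in 1. When rdr6-15 replicate 1 was put back into the limma fit, 0 members were called in both comparisons and 0 had an unadjusted p under 0.05, while 0.576% and 0.312% of all probe sets were called. In that fit the drop that chose the members enters their spread within rdr6-15.

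The double mutant against ddm1-2 asks what the loss of RDR6 adds where DDM1 is lost. None of the 112 members was called by limma (0.193% of all probe sets were, 0.022% higher and 0.171% lower). At an unadjusted p under 0.05 there were 26 of 112, beside 1783 of 22746 (7.84%). With a trended and robust variance 4 of 112 were called, beside 90 of 22746 (0.396%). Both shares were larger among the members than over all, where 8191 probe sets were at control level on all 8 arrays. With dim probe sets left out, 0 members were called beside 0.261% of 12278. The differences ran from -1.29 to 0.99 with a median of 0.02. AT1G44970 was the lowest, with 7.70 and 8.18 in ddm1-2 and 6.76 and 6.55 in the double mutant (adjusted p = 0.0737 by limma). THI2.1, at 9.40 and 9.14 against 10.03 and 10.48, had an adjusted p of 0.148 by limma.

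For rdr6-15 against Col-0, replicate 2 alone could be used, assumed to vary like the other genotypes. Here 0 of 112 members were called by limma, against 0.127% of all probe sets (0.0264% higher and 0.101% lower). At an unadjusted p under 0.05 there were 28, beside 10.8% of all. With a trended and robust variance 3 were called, beside 0.642% of all, and 5 when Col-0 and rdr6-15 replicate 2 alone were fitted, beside 1.27% of all. At the unadjusted p and in both of these other fits, the share was larger among the members than over all. The members read high by the choice, while the background holds 8191 probe sets at control level on all 8 arrays. With dim probe sets left out, 0 members were called beside 0.22% of 12278. The differences ran from -1.46 to 1.63 with a median of -0.05. AT1G66850 was 1.04 higher on that array than the Col-0 mean (adjusted p = 0.125 by limma), THI2.1 0.27 higher (adjusted p = 0.755 by limma) and AT3G14560 differed by -0.98 (adjusted p = 0.116 by limma). By the rule no member could be as low on this array, or on those of the double mutant, as on rdr6-15 replicate 1.

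A further comparison, added with results known, asked whether the loss of DDM1 acted differently on the members with and without RDR6, with rdr6-15 replicate 2 standing alone for its genotype. By limma, 0 of 112 members were called, against 0.18% of all probe sets (0.0791% higher and 0.101% lower). At an unadjusted p under 0.05 there were 28, beside 10.1% of all. At the unadjusted p the share was larger among the members, which read high by the choice, than over all, where many probe sets are at control level. The median of this difference between differences was 0.08 over the members and 0.02 over all.

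The genes whose pattern over the 7 arrays was most like that of THI2.1, by Pearson correlation, were AT2G38370 (0.983), AT4G17370 (0.975), AT3G25790 (0.963), AT4G00870 (0.963) and AT4G38080 (0.961). They were picked as the highest of 13513 probe sets with 1 gene over 7 arrays, and none was a member. Of these, AT4G00870 had clear signal, 5.97 and 6.10 in Col-0, 6.13 and 6.18 in ddm1-2, 6.47 and 6.93 in the double mutant and 6.19 on rdr6-15 replicate 2, with 4.25 on replicate 1. The others stayed below 4 on the 7 arrays, and of them AT4G17370 moved the other way, with 4.86 on rdr6-15 replicate 1 beside 3.35 to 3.95.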

How the data were processed

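Per the labels, inflorescence RNA of 8 plant pools was hybridised to ATH1 arrays, and the submitters' processing notes name RMA. The values deposited by the authors are log2 signals per probe set, with settings not given in the sources used here, and they were used as deposited. The 64 control probe sets were left out. Genes came from the platform's annotation, and names from the TAIR10.1 table. The 7-array model was fitted in R 4.3.3 by lmFit and eBayes of limma 3.58.1, with 3 residual and 5.69 prior degrees of freedom, and the fit was tested on simulated data. Biological replicates were taken as the labels give them, and their number, 2, limits the precision.

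The members, gene lists and tests were chosen with earlier results of these data known. Of 291 loci on 14 lists, 276 were kept, where the table gave the listed symbol, and 33 probe sets matched. Genes given in full were the 20 with 1 gene and the largest gap, list members, called members and those nearest the threshold. Sequences and genomic positions were not used here.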

Additional observations from a re-analysis of the deposited data

Results flagged for a closer look

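Control probe sets outside the comparisons also differed on rdr6-15 replicate 1. The control probe set for U12639 read 5.51 there, against 2.45 and 2.48 in Col-0 and at most 2.65 on the other arrays. The control probe set for 5S ribosomal RNA read 4.79 there, against 2.94 and 2.87 in Col-0 and at most 3.10 elsewhere. Both were noted because they lay more than 1 log2 unit above the higher Col-0 array, a rule that looked at rises alone. Actin control probe sets read lower on rdr6-15 replicate 1: 6.30 against at least 8.24 elsewhere (5′), 8.14 against at least 9.76 (middle) and 9.28 against at least 10.36 (3′). The 5′ set of ubiquitin had 9.41 against at least 10.25. Within the range of the others were the 3′ set of GAPDH, with 8.78 against 8.65 to 9.49, and 25S ribosomal RNA, with 9.42 against 9.14 to 9.99.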

How the results depend on the processing

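The counts of called members depended on the fit. In ddm1-2 against Col-0 (17 in the 7-array fit) they were 0 with all 8 arrays, 33 with a trended and robust variance, 8 with a difference of at least 1 log2 unit and 5 with an adjusted p under 0.01. Leaving out 1 array gave 2 to 21. In the double mutant against Col-0 (18) the same settings gave 0, 30, 10 and 4, and leaving out 1 array 2 to 18. With all 8 arrays, the drop that chose the members enters their spread, so those counts of 0 follow from the choice and say nothing on the genotypes. In the double mutant against ddm1-2 (0) there were 1 after median centring, 4 with a trended variance, and 0 to 1 leaving out 1 array. For rdr6-15 replicate 2 against Col-0 (0) there were 5 with only these genotypes fitted, 3 with a trended variance, and 0 to 1 leaving out 1 array. The fit with all 8 arrays has no contrast of that array alone, and none is possible without it. With the replicate number as block the 4 counts were 23, 0, 19 and 0. The differences between same-numbered replicates correlated at -0.06 to 0.422 over 6 pairs of genotypes, 2 of them below 0 and 2 over 0.1, the highest between ddm1-2 and the double mutant, and the pairs with rdr6-15 rest on its replicate 1 too. This does not show that the numbers pair the arrays, and whether some arrays share a batch was not settled by it.

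A gap of more than 2 gave 270 members and of more than 4 gave 43, with median drops from the other arrays of -3.29 and -5.10 beside -4.23 in the set described. Quantile normalization gave 106 members with a median of -4.38, 103 of them shared with that set. Without 1 of the other arrays there were 112 to 130 members, with medians of -4.33 to -4.16. AT5G33370, not called, changed sign in the double mutant against Col-0, to -0.014 without Col-0 replicate 1 and -0.158 without replicate 1 of the double, over a range of -0.158 to 0.657 when 1 array was left out. Control level limits the size of 56 of the 112 drops. The causes of these shifts were not tested.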
